A study of Homo sapiens with 22 samples.

Results

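YAP1, its paralog WWTR1 (the gene of TAZ), the 4 TEAD transcription factors and 4 of their best known target genes, CYR61, CTGF, ANKRD1 and AMOTL2, were followed by RNA sequencing in 22 libraries from SK-N-AS and GIMEN, established cell lines of human neuroblastoma. The 10 genes were taken by symbol from a raw count table of 35237 genes, in which all 10 were found, CYR61 and CTGF under these older names of CCN1 and CCN2. All 10 passed the filter on low counts in the models behind the main results. Untreated SK-N-AS cells grew in DMEM with 10% fetal bovine serum (FBS). The group S1D4 (stage 1, day 4) had received 5 µM PP121, an inhibitor of tyrosine kinases and phosphoinositide kinases, in DMEM with 1% FBS for 4 days. S2D4 and S2D30 (stage 2) were S1D4 cells moved to Neurobasal with B27 supplement, for which no serum is named, and given 5 µM PP121 with 100 nM bufalin, a cardiac glycoside, for a further 4 or 30 days. Untreated GIMEN cells grew in RPMI with 10% FBS, and the GIMEN D30 group received 2.5 µM PP121 with 10 nM bufalin in RPMI with 1% FBS for 30 days, with no first stage. Each SK-N-AS group had 4 libraries and each GIMEN group had 3. Serum and, in stage 2, the medium changed together with the compounds, so their parts cannot be told apart in any comparison with untreated cells, and doses, medium and stages also differed between the lines. The labels do not say whether replicates were separate cultures, so p-values measure the spread between these libraries, which may be technical.

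YAP and TAZ are transcriptional coactivators that bind no DNA themselves and reach their target genes through TEAD proteins. The Hippo kinases MST1/2 (genes STK4 and STK3) and LATS1/2 phosphorylate them, which keeps them out of the nucleus and marks them for degradation, so their activity is set mainly on the protein and is not read directly from their RNA. In neuroblastoma, YAP and TAZ are known mostly from the mesenchymal cell state, whereas adrenergic cells are known for low levels of both.

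The libraries held 16456484 to 37506800 counts each. Levels are given in CPM, counts relative to the total of the library, after 1 scaling of all 22 libraries by the trimmed mean of M-values, and changes as log2 fold changes ± SE from edgeR's quasi-likelihood test, called at an adjusted p under 0.05 over all genes tested. The labels describe both lines as mesenchymal. In untreated GIMEN the summed level of 10 mesenchymal markers was 47844 to 49697 CPM, and at D30 it was 21598 to 24246 CPM. The sum of 10 adrenergic markers was 452 to 475 CPM in untreated GIMEN, led by HAND2 (a mean of 363 CPM), with PHOX2A, TH and DDC at 0 in all 3 libraries, and 247 to 296 CPM at D30. In SK-N-AS the mesenchymal sum was 2399 to 3157 CPM untreated and 2460 to 2649 CPM at S1D4. It was 2981 to 5309 CPM at S2D4 and 3165 to 3866 CPM at S2D30. FN1 led the sum in untreated GIMEN (a mean of 31491 CPM). VIM led it at S2D4 and S2D30 (means of 3547 and 2862 CPM). Of the 10 mesenchymal markers, 5 were called higher and 5 lower at S2D4 against untreated SK-N-AS, and the same counts held at S2D30. Of all genes tested, 63.1% and 70.3% were called in these comparisons. The adrenergic sum of SK-N-AS was 1663 to 1884 CPM untreated, with 9 of the 10 above a mean of 1 CPM. It was 1385 to 1649 CPM at S1D4, 595 to 913 CPM at S2D4 and 213 to 262 CPM at S2D30. A sum over 12 leukocyte markers was highest in untreated SK-N-AS (179 to 225 CPM, against 31.5 to 81.3 CPM in the treated groups), where PTPRC averaged 177 CPM, while CD3E and MS4A1 were at 0 in every untreated library of that line. At S2D30 the leukocyte sum was led by LCP1 (a mean of 67.5 CPM, against 0.534 CPM untreated), while PTPRC averaged 0.850 CPM. Of the 5 leukocyte markers tested there, 3 were called higher and 2 lower, beside 70.3% of all genes called. In GIMEN the leukocyte sum was 28.3 to 34.9 CPM untreated and 7.45 to 10.4 CPM at D30. Endothelial marker sums ranged from 3.34 to 34.8 CPM, highest in GIMEN D30. The part of these marker differences in the results was not tested. In bulk RNA, fewer cells of a type and less RNA per cell cannot be told apart.

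YAP1 rose in steps through stage 2 in SK-N-AS, from the lowest values of the series at S1D4. Its level was 40.2, 41.9, 36.8 and 53.1 CPM in untreated replicates 1 to 4, 26.1, 26.9, 30.7 and 29.05 CPM at S1D4, 79.4, 73.0, 71.0 and 86.3 CPM at S2D4, and 110, 104, 107 and 116 CPM at S2D30. No 2 of these 4 groups overlapped. Against untreated cells YAP1 fell at S1D4 (-0.63 ± 0.10, adjusted p = 0.000111), rose at S2D4 (0.81 ± 0.10, adjusted p = 2.29e-06) and rose further at S2D30 (1.31 ± 0.10, adjusted p = 4.96e-09), and the step from S2D4 to S2D30 was itself called (0.50 ± 0.10, adjusted p = 0.000499). GIMEN held more YAP1 from the start, at 190, 194 and 196 CPM untreated and 219, 211 and 210 CPM at D30. The 3 treated GIMEN libraries were above the 3 untreated ones, but the difference was not called (0.11 ± 0.05, adjusted p = 0.0871), and it was called without D30 replicate 3 (0.12, adjusted p = 0.0424) and with upper-quartile scaling (0.16, adjusted p = 0.0184). Untreated GIMEN exceeded untreated SK-N-AS by 2.19 ± 0.09 on the log2 scale (4.56-fold, adjusted p = 1.22e-12).

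WWTR1 followed another course, with a peak at S2D4. It was at 24.2, 21.9, 22.2 and 32.3 CPM in untreated SK-N-AS and at 23.7, 21.9, 27.97 and 27.3 CPM at S1D4, groups that overlapped and did not differ detectably (-0.02 ± 0.17, adjusted p = 0.932). At S2D4 it was at 177, 182, 170 and 98.6 CPM, and at S2D30 at 48.8, 45.9, 47.4 and 47.7 CPM. Replicate 4 of S2D4 was far below the other 3 and still above every library of the other SK-N-AS groups. WWTR1 thus rose 6.10-fold at S2D4 (2.61 ± 0.17, adjusted p = 1.72e-09), then fell from S2D4 to S2D30 (-1.73 ± 0.17, adjusted p = 3.04e-07), where it remained 1.84-fold above untreated cells (0.88 ± 0.16, adjusted p = 0.000154). In GIMEN it was at 256, 243 and 247 CPM untreated and rose to 336, 363 and 394 CPM at D30 (0.52 ± 0.07, adjusted p = 4.04e-05). Untreated GIMEN held 9.99-fold more WWTR1 than untreated SK-N-AS (3.32 ± 0.11, adjusted p = 5.06e-14).

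Because the paralogs moved apart, their ratio changed between groups. Per kilobase of exon (lengths from GENCODE 29), the ratio of the WWTR1 level to the YAP1 level was 0.613 ± 0.043 (SD, n = 4) in untreated SK-N-AS, 0.936 ± 0.058 at S1D4, 2.17 ± 0.66 at S2D4 and 0.456 ± 0.016 at S2D30. In GIMEN it was 1.35 ± 0.05 (SD, n = 3) untreated and 1.80 ± 0.18 at D30. WWTR1 was the more abundant RNA per length in every GIMEN library and in every S2D4 library, where replicate 4 had the lowest ratio of the group, 1.2, and YAP1 was the more abundant one in every other SK-N-AS library. With the longest coding transcript as the length, 1 S1D4 library stood at 1.008 and the other libraries stayed on the same side of 1. These ratios are descriptions without a test, and 11.2% of YAP1 exon bases and 11.7% of WWTR1 exon bases lie opposite an antisense gene, whose reads cannot be told apart unless counting used the strand, which is not given in the sources used here.

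**Figure D1:**
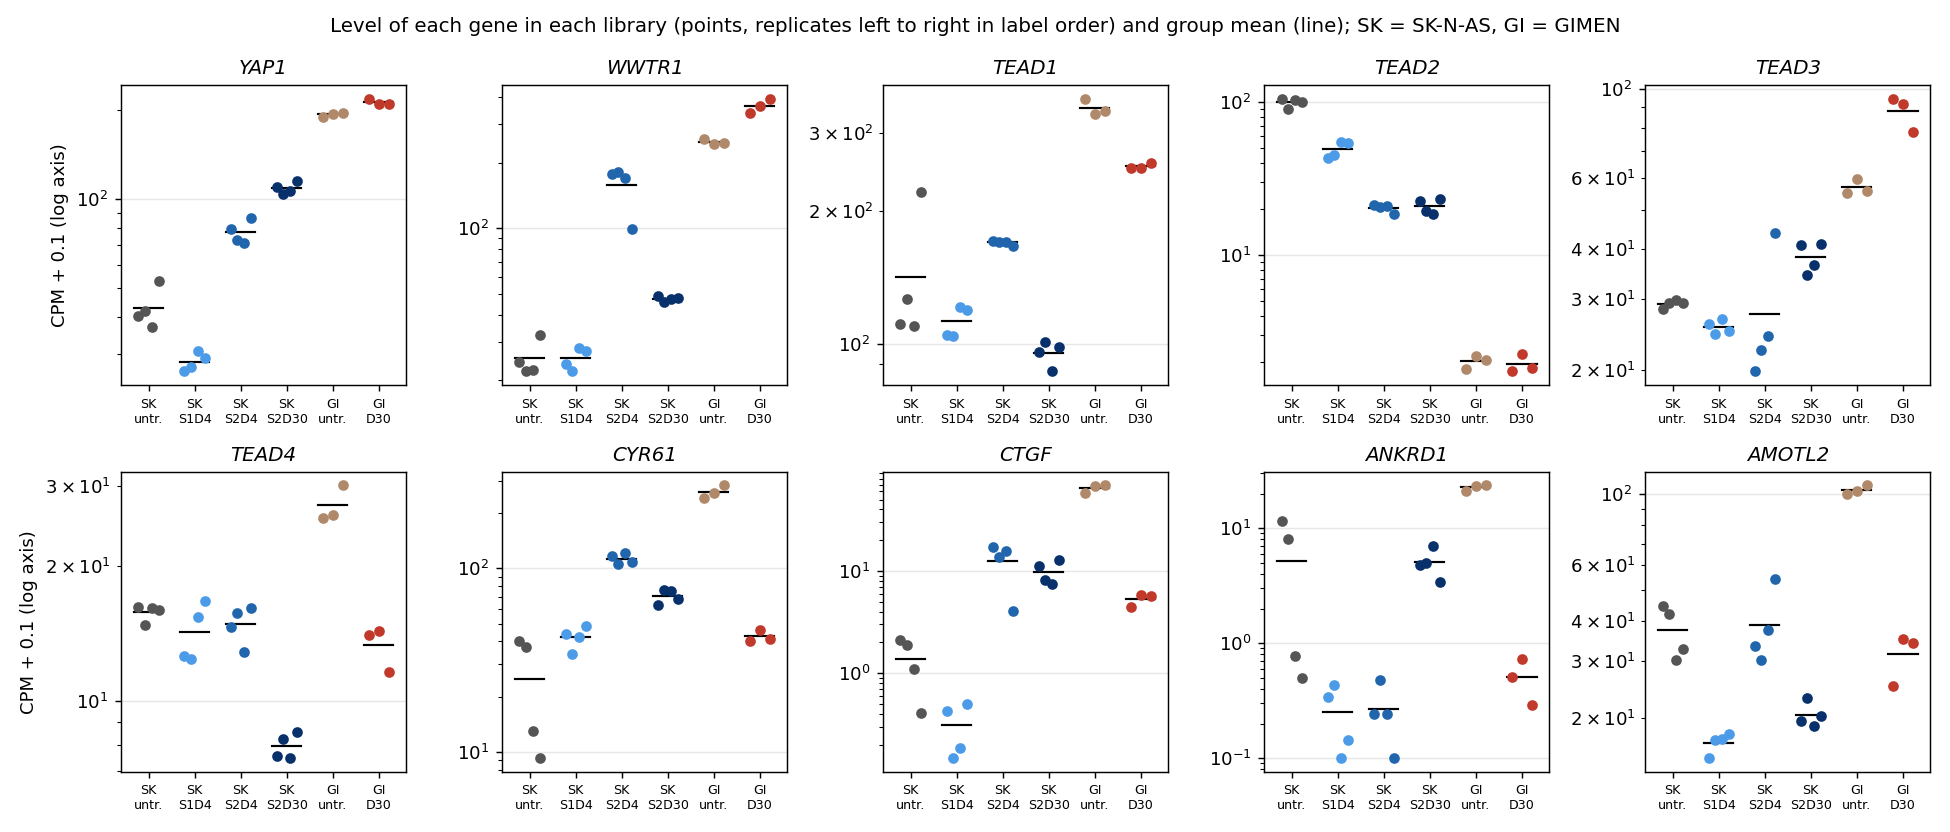
Level of the 10 genes in each of the 22 libraries (CPM plus 0.1 on a log axis, points) with group means (lines), by group. YAP1 climbs from S1D4 to S2D30, WWTR1 peaks at S2D4 with replicate 4 (98.6 CPM) below the rest, TEAD2 declines and is near 2 CPM in GIMEN, and untreated replicates 1 and 2 of SK-N-AS lie above replicates 3 and 4 for CYR61, CTGF, ANKRD1 and AMOTL2.

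The 4 TEAD genes, which encode the DNA-binding partners, did not move together. TEAD2 fell in every SK-N-AS step up to S2D4. Its level was 106, 90.0, 104 and 101 CPM in untreated cells, 43.2, 45.5, 54.8 and 53.9 CPM at S1D4, 21.4, 20.6, 20.8 and 18.6 CPM at S2D4 and 22.7, 19.2, 18.5 and 23.2 CPM at S2D30. Untreated, S1D4 and stage 2 libraries did not overlap, whereas S2D4 and S2D30 did. The fall was 2.06-fold at S1D4 (-1.05 ± 0.10, adjusted p = 9.88e-07), 5.04-fold at S2D4 (-2.33 ± 0.11, adjusted p = 2.44e-11) and 4.90-fold at S2D30 (-2.29 ± 0.10, adjusted p = 1.07e-11). GIMEN held little TEAD2 with or without treatment, 1.70 to 2.11 CPM untreated and 1.64 to 2.16 CPM at D30 (27 to 43 counts per library), and no change was detectable there (-0.09 ± 0.26, adjusted p = 0.754).

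TEAD1 levels were 111, 126, 110 and 221 CPM in untreated SK-N-AS, where replicate 4 stood apart. They were 105, 104, 121 and 119 CPM at S1D4, 171, 170, 170 and 167 CPM at S2D4 and 96.1, 101, 86.7 and 98.5 CPM at S2D30. TEAD1 fell at S2D30 against untreated cells (-0.60 ± 0.16, adjusted p = 0.00329) and against S2D4 (-0.83 ± 0.16, adjusted p = 0.000437), and rose from S1D4 to S2D4 (0.58 ± 0.16, adjusted p = 0.00575). The difference between S2D4 and untreated cells was not called with all libraries (0.23 ± 0.16, adjusted p = 0.229) and was called without untreated replicate 4 (0.52, adjusted p = 3.53e-05). The S1D4 difference (-0.36 ± 0.16, adjusted p = 0.0891) was called without untreated replicate 3 (-0.46, adjusted p = 0.039). In GIMEN TEAD1 fell from 358, 330 and 336 CPM to 249, 250 and 256 CPM (-0.47 ± 0.06, adjusted p = 2.59e-05).

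TEAD4 showed no detected change at S1D4 or S2D4 in SK-N-AS and was lower at day 30 in both lines. It ranged from 12.3 to 16.6 CPM over the 12 untreated, S1D4 and S2D4 libraries of SK-N-AS and was 7.46, 8.14, 7.39 and 8.47 CPM at S2D30 (2.04-fold lower than untreated, -1.03 ± 0.12, adjusted p = 7.05e-07). In GIMEN it fell from 25.4, 25.8 and 30.0 CPM to 13.9, 14.2 and 11.5 CPM (2.09-fold, -1.06 ± 0.11, adjusted p = 4.48e-06). The difference between the 30-day changes of the lines was -0.02 ± 0.16 on the log2 scale (adjusted p = 0.969).

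TEAD3 was at 28.2 to 29.7 CPM in untreated SK-N-AS and 24.5 to 26.7 CPM at S1D4. At S2D4 it was at 19.7, 22.3, 24.1 and 43.7 CPM, and at S2D30 at 40.8, 34.3, 36.5 and 41.0 CPM. Replicate 4 of S2D4 again stood apart, and without it TEAD3 was lower at S2D4 than in untreated cells (-0.43, adjusted p = 0.000377), a difference of -0.11 ± 0.18 with all libraries (adjusted p = 0.593). The 4 S2D30 libraries were above all untreated ones, but the difference was not called in the model of all 16 SK-N-AS libraries (0.36 ± 0.18, adjusted p = 0.0807) and was called in a model of these groups alone (0.38, adjusted p = 0.00223). The rise from S2D4 to S2D30 was called (0.47 ± 0.18, adjusted p = 0.0349) but was lost without any 1 of 6 libraries (S2D4 replicates 1, 2 and 3 and S2D30 replicates 1, 3 and 4), with adjusted p-values of 0.0515 to 0.119. The call was also lost in a model of S2D4 and S2D30 alone (0.48, adjusted p = 0.0959). In GIMEN TEAD3 rose from 54.9, 59.7 and 55.7 CPM to 94.5, 91.8 and 77.9 CPM (0.61 ± 0.08, adjusted p = 2.54e-05).

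As a share of the summed TEAD level per kilobase, TEAD2 made up 52.8% ± 4.5 (SD, n = 4) in untreated SK-N-AS, 39.2% ± 1.2 at S1D4, 17.7% ± 2.3 at S2D4 and 22.2% ± 1.1 at S2D30. TEAD1 had the largest share at S2D4 (42.7% ± 3.6) and TEAD3 at S2D30 (35.8% ± 1.7, against 29.5% ± 1.8 for TEAD1). By the longest coding transcript the S2D30 means kept this order (34.3% for TEAD3, 30.3% for TEAD1). In S2D30 replicate 2 it turned, with 31.9% for TEAD3 and 33.0% for TEAD1. The sum over the 4 genes was 70.7 ± 6.3 CPM per kilobase in untreated SK-N-AS and 35.0 ± 2.3 at S2D30, with no overlap between these groups. In untreated GIMEN the sum was 71.2 ± 0.8 CPM per kilobase (SD, n = 3), close to that of untreated SK-N-AS, but TEAD1 made up 51.7% ± 2.1 of it and TEAD2 1.0107% ± 0.12. At GIMEN D30 the sum was 64.1 ± 3.4 CPM per kilobase, with 45.0% ± 2.3 from TEAD3 and 42.5% ± 2.9 from TEAD1, shares whose ranges overlapped. By the longest coding transcript TEAD1 came to 43.9% and TEAD3 to 43.5% there, so their order at GIMEN D30 depends on the length used.

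**Figure D2:**
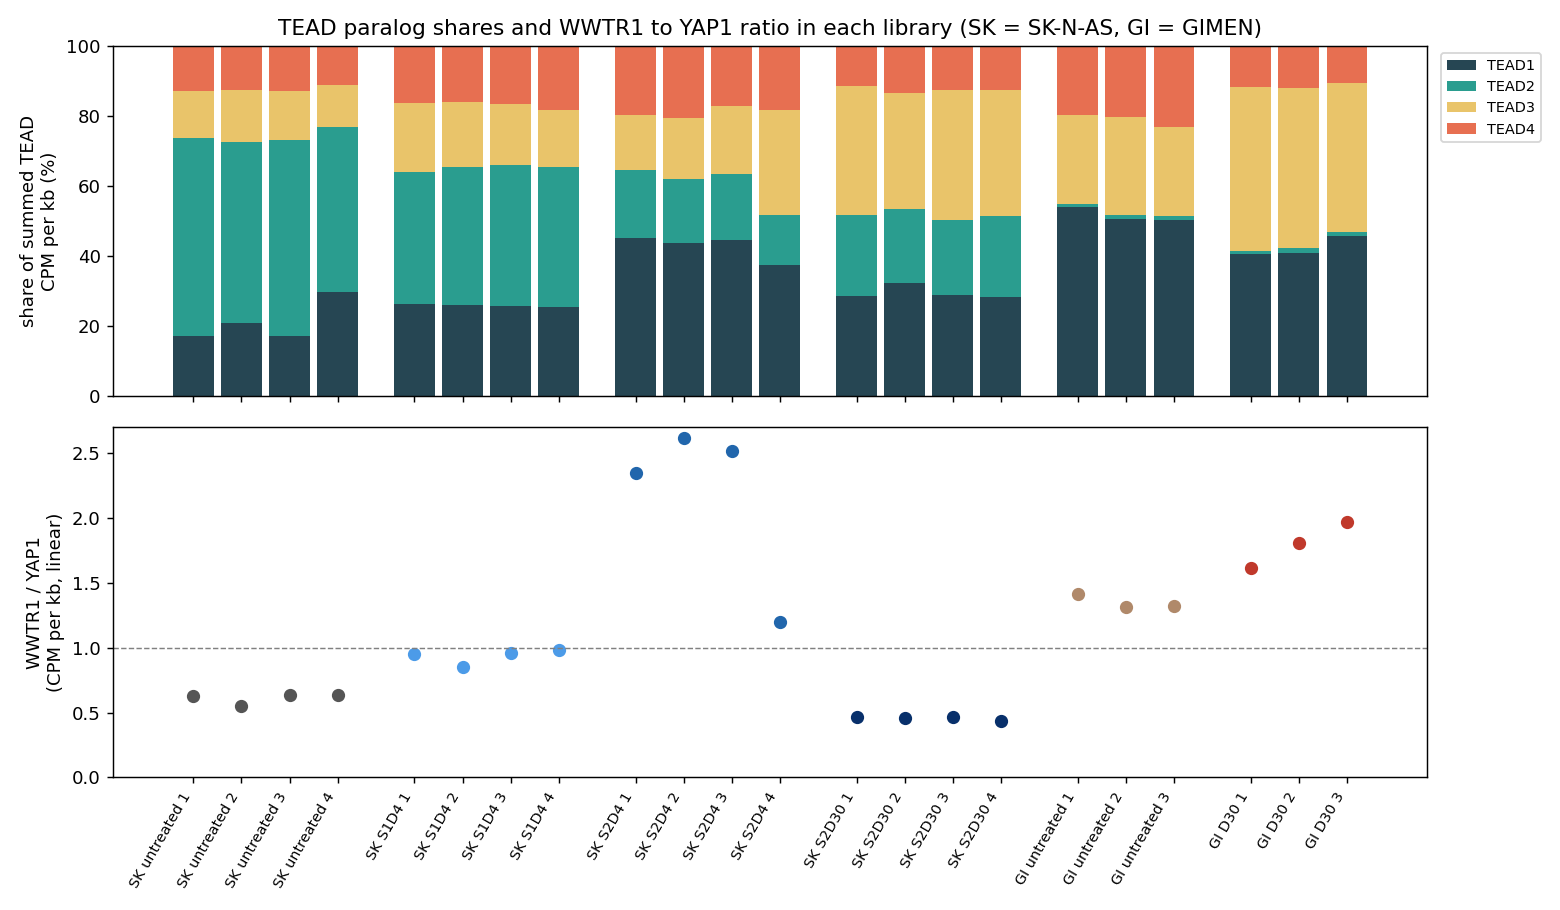
Top, share of each TEAD gene in the summed TEAD level per kilobase of exon (%, stacked bars, 1 bar per library). Bottom, ratio of WWTR1 to YAP1 level per kilobase in the same libraries (dashed line at 1). TEAD2 goes from 52.8% in untreated SK-N-AS to 17.7% at S2D4 and is 1.0107% in untreated GIMEN, and the ratio is above 1 in all S2D4 and GIMEN libraries.

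CTGF and CYR61 encode secreted matrix proteins of the CCN family, ANKRD1 a cardiac ankyrin repeat protein, and AMOTL2 an angiomotin that binds YAP and holds it outside the nucleus. CTGF is the textbook readout of TEAD-bound YAP and TAZ, and its promoter is shown because it holds 3 copies of the TEAD core word. The searched word was GGAATG on either strand, in RefSeq windows (GRCh38.p14) from 250 bases before to 50 after each start site. Of all 35116 windows, 14.03% held at least 1 copy and 0.128% held 3 or more. Promoter windows were matched for 7 of the 10 genes and are not shown for CYR61, TEAD1 and TEAD4. The word was found in 4 of the 7 (YAP1, CTGF, ANKRD1 and AMOTL2, the last in 1 of its 2 windows), against 16.7% of all 27305 genes, and WWTR1, TEAD2 and TEAD3 had none in their windows. The capitals below mark the word, CATTCC being its reverse complement, and each sequence runs 5′ to 3′ on the gene's strand:
CTGF (chr6:131951393-131951572, minus strand, bases -200 to -21): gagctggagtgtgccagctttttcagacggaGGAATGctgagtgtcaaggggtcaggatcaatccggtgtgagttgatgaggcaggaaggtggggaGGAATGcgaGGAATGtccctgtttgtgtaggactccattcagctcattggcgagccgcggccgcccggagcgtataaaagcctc
ANKRD1, distal copy (chr10:90921290-90921319, minus strand): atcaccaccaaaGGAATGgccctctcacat
ANKRD1, proximal copy (chr10:90921198-90921227, minus strand): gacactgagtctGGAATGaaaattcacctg
AMOTL2 (chr3:134374499-134374528, minus strand): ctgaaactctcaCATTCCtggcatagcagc
YAP1 (chr11:102110273-102110302, plus strand): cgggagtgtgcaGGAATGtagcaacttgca
In CTGF the copies began 169, 104 and 95 bases before the RefSeq start site, in ANKRD1 220 and 128 bases before it, in AMOTL2 69 and in YAP1 162 bases before it. In GENCODE 29 the stretch printed for the proximal ANKRD1 copy overlaps an ANKRD1 exon, and that for AMOTL2 an AMOTL2 exon. The YAP1 stretch overlaps an exon of AP001527.2. Those of CTGF and the distal ANKRD1 copy overlap no exon. The AP-1 word TGANTCA, read on both strands, was found in 9.37% of all genes and, among the 7 matched genes, in ANKRD1 only. A match describes the letters and does not show a factor bound there.

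**Figure D3:**
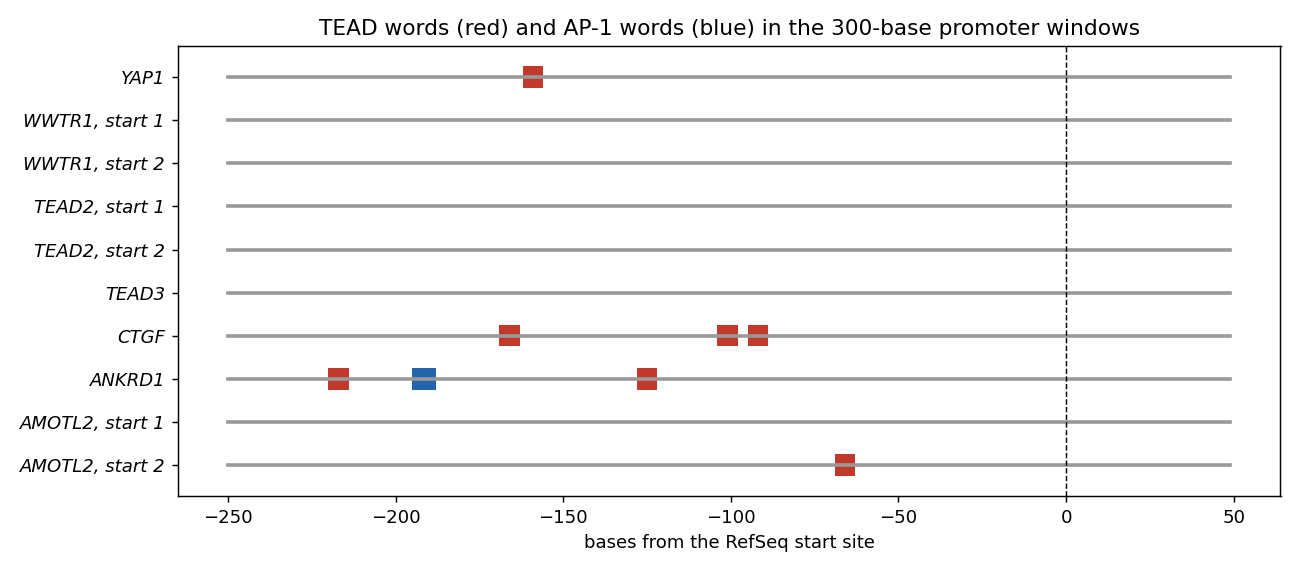
Positions of the TEAD word (red) and the AP-1 word (blue) in each RefSeq window (grey line, 250 bases before to 50 after the start site, dashed line at the start) of the 7 matched genes. CTGF has 3 TEAD words, ANKRD1 2 TEAD words and 1 AP-1 word, and WWTR1, TEAD2 and TEAD3 none.

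CTGF, with those 3 copies, was low in SK-N-AS before stage 2. It was at 2.003, 1.79, 1.002 and 0.305 CPM in untreated cells (81, 41, 21 and 10 counts) and at 0.321, 0.0471, 0.0844 and 0.399 CPM at S1D4 (8, 1, 2 and 9 counts). It was at 16.9, 13.6, 15.4 and 3.99 CPM at S2D4 and at 10.97, 7.99, 7.34 and 12.6 CPM at S2D30. All 8 stage 2 libraries were above all 8 earlier ones. CTGF fell at S1D4, where the highest library was above the lowest untreated one (-2.57 ± 0.68, adjusted p = 0.00656) and rose 9.40-fold at S2D4 (3.23 ± 0.51, adjusted p = 3.66e-05) and 7.35-fold at S2D30 (2.88 ± 0.51, adjusted p = 8.15e-05). From S2D4 to S2D30 no change was detected (-0.35 ± 0.45, adjusted p = 0.537). GIMEN started far higher, at 57.8, 67.5 and 68.7 CPM, and fell to 4.29, 5.65 and 5.59 CPM at D30 (12.8-fold, -3.67 ± 0.12, adjusted p = 3.32e-10). The 30-day levels were 7.34 to 12.6 CPM in SK-N-AS and 4.29 to 5.65 CPM in GIMEN. Of CTGF's exon bases, 8.34% lie opposite an antisense gene.

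CYR61 moved in the same directions at stage 2 and in GIMEN. It was at 40.2, 37.4, 12.98 and 9.16 CPM in untreated SK-N-AS, at 44.0, 33.9, 42.3 and 48.4 CPM at S1D4, at 117, 105, 121 and 108 CPM at S2D4 and at 63.1, 75.8, 75.5 and 68.2 CPM at S2D30. Stage 2 libraries were again above all earlier ones. CYR61 rose 4.38-fold at S2D4 (2.13 ± 0.34, adjusted p = 3.91e-05) and 2.74-fold at S2D30 (1.46 ± 0.33, adjusted p = 0.000925). All S2D30 libraries lay below all S2D4 libraries, but this step was not called in the model of 16 libraries (-0.67 ± 0.32, adjusted p = 0.094) and was called in a model of these groups alone (-0.66, adjusted p = 0.000149). In GIMEN CYR61 fell from 240, 257 and 283 CPM to 40.05, 46.1 and 41.3 CPM (6.24-fold, -2.64 ± 0.08, adjusted p = 2.74e-10).

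ANKRD1 took a different path in SK-N-AS. It was at 11.4, 7.91, 0.668 and 0.397 CPM in untreated cells, at 0.241, 0.330, 0 and 0.0443 CPM at S1D4 (6, 7, 0 and 1 counts), at 0.140, 0.380, 0.141 and 0 CPM at S2D4 (3, 7, 3 and 0 counts) and at 4.69, 4.91, 6.93 and 3.30 CPM at S2D30. It was nearly absent at both 4-day time points and present again at S2D30. ANKRD1 fell at S1D4 (-5.07 ± 1.05, adjusted p = 0.00108) and at S2D4 (-5.12 ± 1.06, adjusted p = 0.000491), and rose from S2D4 to S2D30 (5.02 ± 1.06, adjusted p = 0.00085). At S2D30 it did not differ detectably from untreated cells (-0.10 ± 0.75, adjusted p = 0.914), whose libraries lay on both sides of the S2D30 range. The fitted sizes moved by over 1.5-fold when single libraries were left out, to -4.24 at S1D4 and -4.28 at S2D4 without untreated replicate 1, to -5.68 at S1D4 without S1D4 replicate 2, and to -5.90 at S2D4 and 5.80 for the later rise without S2D4 replicate 2, each still called. In GIMEN ANKRD1 fell 54.8-fold, from 21.1, 23.2 and 23.5 CPM to 0.411, 0.635 and 0.193 CPM (-5.78 ± 0.22, adjusted p = 1.02e-09). The D30 libraries held 7, 10 and 3 counts of it.

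AMOTL2 was at 44.7, 42.0, 30.2 and 32.6 CPM in untreated SK-N-AS, at 14.8, 17.0, 17.0 and 17.6 CPM at S1D4, at 33.3, 30.3, 37.5 and 54.1 CPM at S2D4 and at 19.3, 23.0, 18.7 and 20.1 CPM at S2D30. It fell at S1D4 (-1.20 ± 0.17, adjusted p = 3.36e-05), rose from S1D4 to S2D4 (1.22 ± 0.17, adjusted p = 1.34e-05) to levels that overlapped those of untreated cells (0.02 ± 0.16, adjusted p = 0.931), and was lower again at S2D30 (-0.92 ± 0.17, adjusted p = 0.000103). This was the only target of the 4 that fell in both lines by day 30, in GIMEN from 100, 102 and 107 CPM to 25.0, 35.2 and 34.2 CPM (-1.74 ± 0.11, adjusted p = 6.83e-08). Of the 75-base words of AMOTL2 exons, 1.79% are shared with the pseudogene RPL39P5.

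The untreated SK-N-AS libraries were not alike for these targets. For all 4 targets replicates 1 and 2 were both above replicates 3 and 4, which held for 19.7% of the 15810 genes tested and for none of the 6 coactivator and TEAD genes. It also held for 6 of 14 tested genes of a list of other YAP/TAZ-TEAD targets (among them AXL, NT5E and GADD45B) and for 5 of 13 tested targets of SRF and MRTF. The reverse order, with replicates 1 and 2 both below, held for 22.1% of all genes in untreated cells. At S1D4 replicates 1 and 2 were both above for 31.7% of all genes and both below for 31.4%. There they were both below for 5 of the 6 coactivator and TEAD genes. Of the 4 targets at S1D4, 1 had them above and 1 below. The labels give no batch for this split in either group. With untreated replicates 1 and 2 left out (an alternative chosen after seeing the data, as is the next), the falls at S1D4 were no longer called for CTGF (-1.48, adjusted p = 0.198) and ANKRD1 (-1.74, adjusted p = 0.14), nor was that of ANKRD1 at S2D4 (-1.78, adjusted p = 0.0921). The same step made CYR61 higher at S1D4 (1.93, adjusted p = 3.3e-06) and ANKRD1 higher at S2D30 (3.23, adjusted p = 0.00176). With replicates 3 and 4 left out instead, the S1D4 value of CYR61 was 0.09 (adjusted p = 0.606) and the S2D30 value of ANKRD1 was -1.01 (adjusted p = 0.09). The S1D4 value of CYR61 with all libraries was 0.72 ± 0.33 (adjusted p = 0.0934), and it was called without untreated replicate 1 (1.09, adjusted p = 0.0165) or 2 (0.98, adjusted p = 0.0365) and with a term for replicates 3 and 4 of the untreated and S1D4 groups (0.96, adjusted p = 0.0165). The stage 2 rises of CTGF and CYR61 were called under both, at 4.32 and 2.67 for CTGF and 3.35 and 1.504 for CYR61 at S2D4, and at 3.97 and 2.31 for CTGF and 2.67 and 0.82 for CYR61 at S2D30. The S1D4 falls of YAP1, TEAD2 and AMOTL2 were called under both as well.

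**Figure D4:**
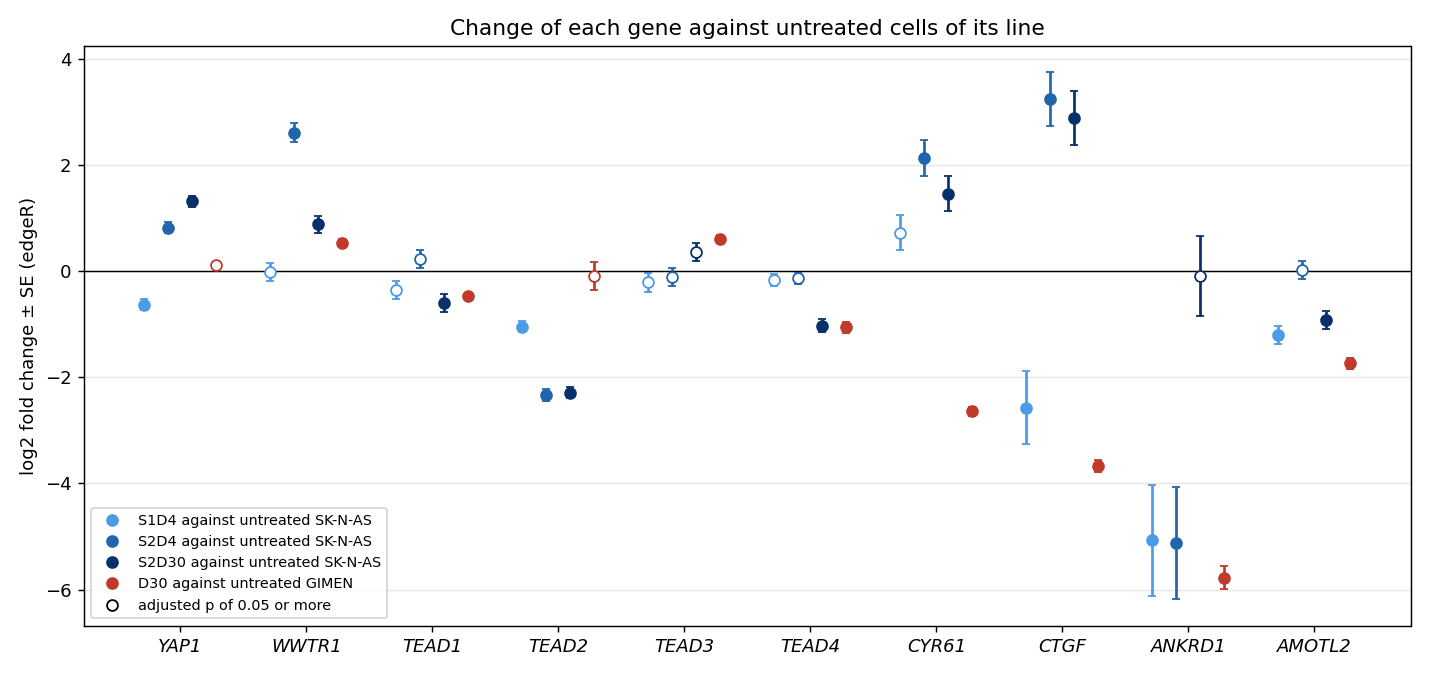
Log2 fold change ± SE (edgeR) of the 10 genes against untreated cells of the same line, for S1D4, S2D4 and S2D30 of SK-N-AS and D30 of GIMEN (filled, adjusted p under 0.05). CTGF and CYR61 are above 0 at S2D4 and S2D30 and below 0 in GIMEN (CTGF 3.23, 2.88 and -3.67), while WWTR1 is above 0 in GIMEN and in both stage 2 groups.

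Counted over the 10 genes, 5 were lower and 0 higher at S1D4 by edgeR's test, where 40.1% of all genes tested were called (17.6% higher, 22.4% lower). DESeq2 gave the same counts, and at an unadjusted p under 0.05 CYR61 was higher and 6 of the 10 were lower. At S2D4 4 were higher and 2 lower, beside 30.9% and 32.2% of all genes (63.1% called). At S2D30 4 were higher and 4 lower, beside 33.8% and 36.5% (70.3% called). From S1D4 to S2D4 6 were higher and 1 lower, beside 28.3% and 26.8% (55.1% called), and from S2D4 to S2D30 3 were higher and 4 lower, beside 24.4% and 26.9% (51.3% called). In GIMEN D30 2 were higher and 6 lower, beside 35.5% and 36% (71.4% called). In these 6 comparisons, in this order, the libraries of the groups did not overlap for 5, 6, 9, 7, 7 and 9 of the 10 genes, against 38.3%, 51.2%, 66.4%, 49.5%, 50.3% and 75.4% of all genes. The shares of the 10 genes called were near those of all genes in most of these comparisons, so the counts are no result about the 10. The SK-N-AS comparisons with untreated cells share the same 4 untreated libraries.

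Whether the lines responded differently was asked with an interaction term, the 30-day change in GIMEN minus that in SK-N-AS, fitted over 14 libraries (untreated cells and day 30 of each line). Of the 10 genes, 5 were called lower and 1 higher, where 49.7% of all genes were called (25.2% higher, 24.5% lower). CTGF had the largest size (-6.52 ± 0.46, adjusted p = 7.32e-09), followed by ANKRD1 (-5.64 ± 1.21, adjusted p = 0.000991), CYR61 (-4.07 ± 0.50, adjusted p = 4.53e-06) and AMOTL2 (-0.80 ± 0.20, adjusted p = 0.00367), so all 4 targets changed more negatively in GIMEN. YAP1 did so too (-1.18 ± 0.13, adjusted p = 1.15e-06), and TEAD2 changed less negatively in GIMEN (2.21 ± 0.22, adjusted p = 4.42e-07). WWTR1 rose in both lines, and the difference of its rises was not called with all libraries (-0.34 ± 0.15, adjusted p = 0.0703), but was called without SK-N-AS untreated replicate 4 (-0.46, adjusted p = 0.00111) or GIMEN D30 replicate 3 (-0.41, adjusted p = 0.0472). The TEAD3 difference (0.26 ± 0.12, adjusted p = 0.0884) was called without GIMEN D30 replicate 3 (0.34, adjusted p = 0.0334) and with upper-quartile factors (0.31, adjusted p = 0.0474). Without SK-N-AS untreated replicate 1 the ANKRD1 value was -6.50. In GIMEN the targets thus fell in the same libraries in which WWTR1 rose.

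Before treatment 9 of the 10 genes were higher in GIMEN than in SK-N-AS and TEAD2 was lower, where 73.9% of all genes were called (35.3% higher and 38.6% lower in GIMEN). The libraries of the lines did not overlap for any of the 10, nor for 71.7% of all genes. The differences were 5.65 ± 0.33 for CTGF (50.2-fold, adjusted p = 9.73e-11), 3.38 ± 0.36 for CYR61 (10.4-fold, adjusted p = 1.88e-07), 2.12 ± 0.64 for ANKRD1 (4.34-fold, adjusted p = 0.00687, and 2.98 without SK-N-AS replicate 1) and 1.47 ± 0.14 for AMOTL2 (2.78-fold, adjusted p = 5.02e-08). TEAD2 was 51.1-fold lower in GIMEN (-5.67 ± 0.15, adjusted p = 2.99e-15). TEAD1, TEAD3 and TEAD4 were higher by 1.29 ± 0.17, 0.98 ± 0.09 and 0.81 ± 0.11. Upper-quartile factors moved the median of all genes by -0.15 in this comparison and changed none of the 10 calls. After 30 days the order of the lines had turned for 3 targets: CYR61 was 63.1 to 75.8 CPM in SK-N-AS and 40.05 to 46.1 CPM in GIMEN, CTGF was also higher in every SK-N-AS library, and ANKRD1 was 3.30 to 6.93 CPM against 0.193 to 0.635 CPM. The 30-day groups received different doses and media, and were not tested against each other.

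Upstream of YAP and TAZ, a list of 25 Hippo kinases, scaffolds and regulators was measured in full. At S1D4 4 rose and 8 fell, at S2D4 13 rose and 2 fell, at S2D30 12 rose and 5 fell, and in GIMEN 10 rose and 10 fell. These are 12, 15, 17 and 20 of 25 called in either direction, near the 40.1%, 63.1%, 70.3% and 71.4% of all genes. By direction, 17.6%, 30.9%, 33.8% and 35.5% of all genes were higher and 22.4%, 32.2%, 36.5% and 36% lower. At S2D4 and S2D30 rises outnumbered falls in the list but not among all genes, a split that was not tested. The median change of the list was -0.04 at S1D4, 0.26 at S2D4, 0.22 at S2D30 and 0.15 in GIMEN, beside -0.01, -0.02, -0.03 and 0.02 for all genes tested. FAT1, a giant protocadherin upstream of the pathway, went from 26.9 ± 8.4 CPM (SD, n = 4) in untreated SK-N-AS to 370 ± 75 at S2D4 and 129 ± 7 at S2D30 (3.75 ± 0.20, adjusted p = 1.26e-10, and 2.23 ± 0.19, adjusted p = 1.37e-08). In GIMEN it fell, from 8.12 ± 0.47 CPM (SD, n = 3) to 2.02 ± 0.38 (-2.04 ± 0.19, adjusted p = 1.76e-06). FAT1 thus peaked at S2D4, as WWTR1 did.

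The kinase LATS2, itself a known YAP target, rose from 7.83 ± 1.48 CPM (SD, n = 4) in untreated SK-N-AS to 19.3 ± 3.1 at S2D4 (1.27 ± 0.15, adjusted p = 1.49e-06) and 34.2 ± 1.1 at S2D30 (2.09 ± 0.15, adjusted p = 2.49e-09). Its paralog LATS1 had the largest rise of the list in GIMEN, from 18.5 ± 2.1 to 31.9 ± 0.9 CPM (0.76 ± 0.09, adjusted p = 1.86e-05), followed by the LIM protein LIMD1, which binds LATS (0.71 ± 0.05, adjusted p = 4.11e-07). AMOTL1, a paralog of AMOTL2, rose at S1D4, from 49.9 ± 14.3 to 118 ± 7 CPM (1.21 ± 0.18, adjusted p = 5.24e-05), while AMOTL2 fell there. The kinase TAOK3 also rose at S1D4 (0.77 ± 0.11, adjusted p = 3.65e-05).

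Falls in the list included the protocadherin FAT4 at S1D4 (-1.79 ± 0.32, adjusted p = 0.000293) and S2D30 (-2.40 ± 0.33, adjusted p = 5.35e-06) and its ligand DCHS1 at S2D30 (-1.68 ± 0.19, adjusted p = 7.08e-07). The LIM protein AJUBA fell at S1D4 (-1.26 ± 0.29, adjusted p = 0.00272) and S2D4 (-1.19 ± 0.29, adjusted p = 0.002), neither called with untreated replicates 1 and 2 left out (-0.81, adjusted p = 0.0804, and -0.74, adjusted p = 0.0711). NF2, the gene of merlin, fell slightly at S2D4 (-0.30 ± 0.12, adjusted p = 0.0316), a call lost with no filter on low counts (adjusted p = 0.0774), without S2D4 replicate 4 (-0.17, adjusted p = 0.0582) and without each of untreated replicates 1, 3 and 4 (adjusted p of 0.0524 to 0.132). A model of the compared groups alone lost it too (adjusted p = 0.123). So did leaving out untreated replicates 1 and 2 (adjusted p = 0.146) or 3 and 4 (adjusted p = 0.0921). In GIMEN the FERM protein FRMD6 fell from 652 ± 14 to 163 ± 10 CPM (SD, n = 3; -2.03 ± 0.07, adjusted p = 3.45e-10).

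VGLL proteins compete with YAP and TAZ for TEAD. VGLL1 and VGLL2 had at most 2 counts in any library, below the floor of 3 counts, and were not tested. VGLL4 was at 27.1 ± 8.1 CPM (SD, n = 4) in untreated SK-N-AS and 45.6 ± 8.7 at S2D4 (0.72 ± 0.17, adjusted p = 0.00188), and at 50.6 ± 2.7 CPM (SD, n = 3) in untreated GIMEN and 68.9 ± 11.1 at D30 (0.42 ± 0.10, adjusted p = 0.00264). At S1D4 and S2D30 it was 28.4 ± 3.0 and 27.3 ± 2.9 CPM, with no change detected, so in SK-N-AS it was higher at S2D4 alone. Of its exon bases 31.5% lie opposite ATG7. VGLL3 rose in SK-N-AS by S2D30, from 1.41 ± 0.65 to 4.06 ± 0.46 CPM (1.48 ± 0.32, adjusted p = 0.000542), and fell in GIMEN, from 5.49 ± 0.63 to 2.22 ± 0.33 CPM (-1.33 ± 0.21, adjusted p = 0.000121). Its interaction was called (-2.79 ± 0.40, adjusted p = 2.48e-05), with the sign seen for CTGF and CYR61.

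Of 16 other genes known as YAP/TAZ-TEAD targets, 14 were tested in each line. At S1D4 3 rose and 4 fell, at S2D4 9 rose and 3 fell, at S2D30 7 rose and 4 fell, and in GIMEN 1 rose and 9 fell. Of all genes 17.6%, 30.9%, 33.8% and 35.5% were called higher and 22.4%, 32.2%, 36.5% and 36% lower in these comparisons. The median change of the list was -0.32, 0.89, 0.83 and -0.78, beside -0.01, -0.02, -0.03 and 0.02 for all genes. The receptor tyrosine kinase AXL rose from 13.3 ± 5.0 CPM (SD, n = 4) in untreated SK-N-AS to 89.8 ± 28.7 at S2D4 (2.71 ± 0.26, adjusted p = 1.7e-07) and fell in GIMEN from 573 ± 15 to 121 ± 7 CPM (SD, n = 3; -2.27 ± 0.07, adjusted p = 1.49e-10), as CTGF and CYR61 did. With untreated replicates 1 and 2 left out, its S2D4 value was 3.31. NT5E, the gene of the ectonucleotidase CD73, rose in both lines, from 34.1 ± 5.5 to 323 ± 128 and 847 ± 103 CPM at S2D4 and S2D30 (3.21 ± 0.27, adjusted p = 3.19e-08, and 4.60 ± 0.29, adjusted p = 4.27e-10) and from 940 ± 21 to 1859 ± 257 CPM in GIMEN (0.96 ± 0.09, adjusted p = 2.3e-06). It was the 1 gene of this list that rose there. At S2D4 replicate 4 was the lowest library for AXL (47.0 CPM, group median 103) and for NT5E (133 CPM, median 372).

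GADD45B, a stress-responsive gene, had the largest rise of the list at S2D30, from 0.988 ± 0.731 to 29.5 ± 1.3 CPM (4.82 ± 0.40, adjusted p = 1.36e-08, and 6.35 and 4.14 with untreated replicates 1 and 2 or 3 and 4 left out). The kinase NUAK2, which feeds back on the pathway, rose at S1D4 (1.61 ± 0.32, adjusted p = 0.00087), as did the guanine nucleotide exchange factor DOCK5 (0.73 ± 0.12, adjusted p = 0.000132). Not all targets followed: the RNA-binding protein gene RBMS3 fell at S1D4, S2D4 and S2D30, from 20.1 ± 2.1 CPM untreated to 9.28 ± 2.32, 4.63 ± 0.71 and 1.10 ± 0.32 CPM, and the secreted CCDC80 fell likewise from 28.3 ± 3.2 to 13.6 ± 2.8, 7.78 ± 0.77 and 5.60 ± 0.33 CPM (adjusted p between 6.76e-11 and 0.000164 for these 6 changes). The secreted kinase-like FJX1 fell in GIMEN from 252 ± 3 to 58.2 ± 11.4 CPM (-2.14 ± 0.11, adjusted p = 1.54e-08).

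SRF and its actin-sensing coactivators MRTF-A and MRTF-B share several targets with YAP, among them CTGF, CYR61 and ANKRD1. A list of 16 SRF/MRTF targets that leaves out those genes gave 2 rises and 3 falls of 13 tested at S1D4, 6 and 4 at S2D4, 3 and 6 at S2D30, and 1 rise and 13 falls of 15 tested in GIMEN, with median changes of -0.04, 0.09, 0.02 and -1.51. Beside these stand the all-gene medians of -0.01, -0.02, -0.03 and 0.02, and 40.1%, 63.1%, 70.3% and 71.4% of all genes called. The actin crosslinker FLNA rose from 1027 ± 132 CPM (SD, n = 4) to 2545 ± 171 at S2D4 and 4040 ± 378 at S2D30 (1.27 ± 0.11, adjusted p = 3.06e-08, and 1.94 ± 0.11, adjusted p = 1.17e-10), and the LIM protein gene FHL2 also rose at both (1.02 ± 0.28, adjusted p = 0.00418, and 1.10 ± 0.28, adjusted p = 0.0019). The lowest FHL2 library at S2D4 was at 6.03 CPM (group median 20.9), below the untreated range of 7.33 to 10.4 CPM. Smooth muscle actin, ACTA2, fell from 7.98 ± 4.11 to 1.03 ± 0.35 and 0.475 ± 0.118 CPM (-3.01 ± 0.55, adjusted p = 0.000168, and -4.09 ± 0.61, adjusted p = 1.43e-05, or -2.14 and -3.22 with untreated replicates 1 and 2 left out, both called).

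At S1D4 the calponin CNN2 fell (-1.22 ± 0.13, adjusted p = 2.25e-06), as it did at S2D4 (-1.81 ± 0.13, adjusted p = 4.6e-09), and zyxin, ZYX, rose (0.59 ± 0.10, adjusted p = 0.000244). Tropomyosin 1, TPM1, fell at S1D4 (-0.75 ± 0.19, adjusted p = 0.0044), a call lost with untreated replicates 1 and 2 left out (-0.30, adjusted p = 0.194), and at S2D30 (-1.75 ± 0.19, adjusted p = 4.35e-07). The S1D4 rise of transgelin, TAGLN (0.67 ± 0.23, adjusted p = 0.0258), was lost without untreated replicate 1 or 3 or S1D4 replicate 2 (0.64, 0.58 and 0.47, adjusted p = 0.0586, 0.0774 and 0.111). In GIMEN TAGLN fell from 167 ± 9 to 3.35 ± 0.68 CPM (SD, n = 3; -5.66 ± 0.11, adjusted p = 6.93e-12) and the smooth muscle actin ACTG2 from 4.803 ± 0.380 to 0.0995 ± 0.1215 CPM (-5.47 ± 0.46, adjusted p = 8.28e-07, and -6.96 without D30 replicate 1), on 0 to 4 counts per D30 library. The 1 rise there, of TPM2 (0.19 ± 0.07, adjusted p = 0.0282), was lost with DESeq2's test (adjusted p = 0.0915), with no filter (adjusted p = 0.102) and without untreated replicate 1 or 2 or D30 replicate 2 (adjusted p of 0.0571 to 0.157).

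**Figure D5:**
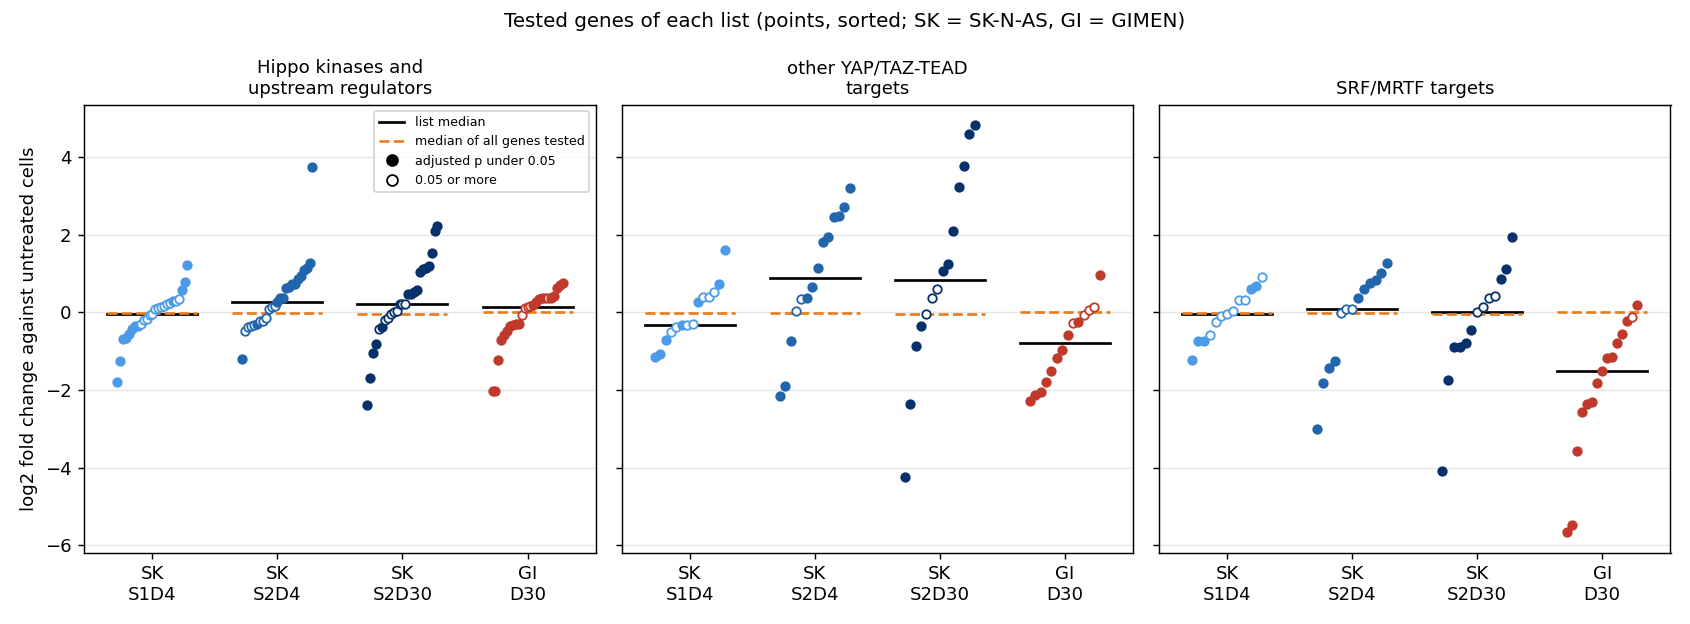
Log2 fold changes of the tested genes of 3 lists (Hippo kinases and regulators, other YAP/TAZ-TEAD targets, SRF/MRTF targets) against untreated cells, sorted within each comparison (points, filled where adjusted p was under 0.05), with the list median (black) and the median of all genes tested (orange, dashed). The medians of both target lists are below 0 in GIMEN (-0.78 and -1.51), and that of the other YAP/TAZ-TEAD targets is above 0 at S2D4 and S2D30 (0.89 and 0.83).

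Over the 16 SK-N-AS libraries, the genes whose log2 CPM was most like that of a member by Pearson's r, among 10193 genes of at least 10 CPM, were WDR43 and ATL2 for YAP1 (r = 0.990 and 0.989), ATR and VAPB for WWTR1 (0.979 and 0.966), CLIC1 and PLP2 for CYR61 (0.953 and 0.949), NSRP1 for CTGF (0.961), NSDHL and HSD17B7 for ANKRD1 (0.963 and 0.939), and NOP56 and PRPS1 for AMOTL2 (0.925 and 0.914). The libraries form 4 groups, so these values describe mainly the differences between groups. With a prior count of 0.5 in place of 2, the second gene became C14orf1 for ANKRD1.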

How the data were processed

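RNA was measured in 16 SK-N-AS and 6 GIMEN libraries. The deposited values are raw counts per gene, per the file headers and checked on the values (whole numbers with differing totals). Per the labels' protocols, total RNA was treated with DNase and sequenced as paired ends on an Illumina HiSeq X. The aligner, counter, genome build, annotation and strand setting are not given in the sources used here. Groups and replicate numbers came from the labels. The members and gene lists were chosen with earlier results of these data known.

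The tests used edgeR 4.0.16 under R 4.3.3 (filterByExpr with a minimum count of 10 and total of 15, TMM scaling, quasi-likelihood F-test without a block, Benjamini-Hochberg over all genes, threshold 0.05). One model held the 16 SK-N-AS libraries (15810 genes), 1 the 6 GIMEN libraries (13517) and 1 the 14 untreated and 30-day libraries (16246). The SE is the size of the log2 fold change divided by the square root of F. The fits were tested on simulated data. All 10 genes are named throughout, and from each other pathway list the 2 largest called rises and falls against untreated cells with a mean of at least 1 CPM. The VGLL and CCN family lists are named whole, the cell type markers by counts. Some genes that these rules would name are not reported here. Lengths and overlaps came from GENCODE 29, promoters from RefSeq. Alternatives were DESeq2 1.42.0, DESeq2 size factors and upper-quartile factors in edgeR, 2 other filters, a replicate block, a term for replicates 3 and 4 of the untreated and S1D4 groups, models of the compared groups alone, and leaving out each library. Leaving out pairs of untreated libraries was added after seeing the data. Reads carried no molecular identifiers.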

Additional observations from a re-analysis of the deposited data

Results flagged for a closer look

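In 3 of 40 tests for a single library far from the other 3 of its SK-N-AS group, where chance gives about 1 in 20, the gap to the nearest library, as a share of the group's range, passed Dixon's critical value. WWTR1 was 98.6 CPM in S2D4 replicate 4, with the next library at 170 CPM. TEAD1 was 221 CPM in untreated replicate 4, with the next at 126 CPM. TEAD4 was 14.6 CPM in untreated replicate 2, with the next at 15.9 CPM, in a group that spans only 14.6 to 16.1 CPM. The same S2D4 replicate 4 was also the lowest of its group for CTGF (3.99 CPM) and the highest for YAP1 (86.3 CPM), TEAD3 (43.7 CPM) and AMOTL2 (54.1 CPM), short of that value, and it had the most counts of its group, 34292076.

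The 30-day change differed between the lines for 6 of the 10 genes by the interaction test, given as the GIMEN change minus the SK-N-AS change on the log2 scale. The values were -6.52 for CTGF, -5.64 for ANKRD1, -4.07 for CYR61, -1.18 for YAP1, -0.80 for AMOTL2 and 2.21 for TEAD2. CTGF and CYR61 rose in SK-N-AS and fell in GIMEN, AMOTL2 fell in both and more in GIMEN, ANKRD1 fell in GIMEN with no change detected in SK-N-AS, YAP1 rose in SK-N-AS with no change called in GIMEN, and TEAD2 fell in SK-N-AS with no change detected in GIMEN, where it was near 2 CPM. The lines also differed in dose, medium and stages, which cannot be told apart from the line.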

How the results depend on the processing

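Counts of called members kept within 1.5 times of the main count under every alternative, except at S1D4, where a model of the compared groups alone called 3 in place of 5. CTGF and ANKRD1 did not pass the count filter in that model and were not tested in it, so their calls were not lost to a test. ANKRD1 was likewise untested in the models of the compared groups alone for S2D4 against untreated cells and against S1D4. Over fits without 1 library they were 5 to 6 at S1D4, 6 to 7 at S2D4, 8 at S2D30, 7 to 8 from S1D4 to S2D4, 6 to 7 from S2D4 to S2D30, 8 to 9 in GIMEN, 6 to 8 for the interaction and 10 between the untreated lines. Of 1286 values of single members under an alternative, 1220 kept direction and side of the threshold; the others are 38 turned directions, 18 calls gained and 10 lost, and where no cause is shown by the fewer samples it was not tested. Turned values of called size were ANKRD1 at S2D30, at 3.23 (adjusted p = 0.00176) with untreated replicates 1 and 2 left out and 1.09 (adjusted p = 0.0145) with the term for replicates 3 and 4, and TEAD3 from S1D4 to S2D4, at -0.22 (adjusted p = 0.0424) without S2D4 replicate 4. The rest were not called. WWTR1 at S1D4 was 0.0020 with DESeq2 size factors, 0.0069 with upper-quartile factors, 0.0021 with DESeq2, 0.011 with the compared groups alone and 0.10 with untreated replicates 3 and 4 left out. AMOTL2 at S2D4 was -0.060 with upper-quartile factors and -0.19 with untreated replicates 3 and 4 left out. With upper-quartile factors TEAD3 and TEAD4 from S1D4 to S2D4 were -0.012 and -0.053, and the TEAD4 interaction was 0.027. ANKRD1 from S1D4 to S2D4 was 0.054 with DESeq2. Over fits without 1 library the ranges were -0.081 to 0.12 for WWTR1 at S1D4, -0.43 to 0.017 for TEAD3 and -0.19 to 0.15 for AMOTL2 at S2D4, -0.48 to 0.73 for ANKRD1 at S2D30, -0.22 to 0.23 for TEAD3, -0.016 to 0.13 for TEAD4 and -0.83 to 0.56 for ANKRD1 from S1D4 to S2D4, -0.014 to 0.095 for TEAD2 from S2D4 to S2D30, and -0.12 to 0.25 for TEAD1 and -0.079 to 0.064 for TEAD4 in the interaction. Where these leave 2 GIMEN libraries in a group, the model pools the spread.

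Replicate numbers did not meet the bar for pairing, a correlation over 0.1 in every pair of a comparison: same-numbered libraries of different groups had correlated deviations from -0.10 to 0.29, with 4 of 27 pairs over 0.1, and 8 libraries correlated best with their own number. Of those 4 pairs, 3 were untreated against S1D4, at 0.27, 0.27 and 0.29 for replicates 1, 2 and 4, each best with its own number, and 0.04 for replicate 3. With the replicate block, ANKRD1 was 0.87 (adjusted p = 0.282) at S2D30 and 0.081 from S1D4 to S2D4, the WWTR1 interaction was called (-0.36, adjusted p = 0.0468), and no other call of the 10 genes changed, those at S1D4 included. Depth limits CTGF at S1D4 and ANKRD1 at S1D4 and S2D4 most, which rest on 0 to 9 counts per library. It also limits ANKRD1 in GIMEN D30, on 3 to 10 counts, and so the size of its fall and of its interaction.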

Other observations

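Among the other CCN family genes, NOV (CCN3), a secreted member of the family, rose in SK-N-AS from 0.474 ± 0.133 CPM (SD, n = 4) in untreated cells to 7.22 ± 5.28 at S2D4 (3.96 ± 0.43, adjusted p = 6.37e-07), as CTGF and CYR61 rose there, and 126 ± 19 at S2D30 (8.06 ± 0.44, adjusted p = 8.36e-11). Replicate 4 of S2D4 held 15.1 CPM and the other 3 libraries 4.52 to 4.66 CPM, and without it the change was 3.28 (adjusted p = 2.09e-09). At S1D4 NOV was 1.12 ± 0.33 CPM (1.26 ± 0.52, adjusted p = 0.0651), a change called by DESeq2 (adjusted p = 0.00761), with upper-quartile factors (0.0468), with the replicate block (0.0335) and in a model of the compared groups alone (0.0132). In GIMEN it had 0 counts in all 6 libraries. WISP1 (CCN4) fell in GIMEN, as CTGF and CYR61 did there, from 15.95 ± 0.48 CPM (SD, n = 3) in untreated cells to 2.36 ± 0.96 at D30 (-2.79 ± 0.21, adjusted p = 3.07e-07), with at most 6 counts in any SK-N-AS library. WISP2 and WISP3 stayed below 1 CPM in every library.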
